A study of Equus caballus with 26 samples.

Results

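The genes described here are the T cell identity and receptor signalling genes of horse blood, a list of 37 genes that covers the CD3 chains, the CD4 and CD8 coreceptors, the enzymes and adaptors next to the receptor, adhesion molecules, markers of naive and central memory cells, and markers of effector, helper, activated and regulatory cells. They were found by the gene name that the scanner files give for each probe, or otherwise by the gene name in the probe description, in the study's additional files or in RefSeq. Of the 37 genes, 35 had a probe on an array with 24415 gene names, 16 by the gene name field itself and 19 by one of the other routes. CD96 and BCL11B had no probe with their name. The brightest probe stood for each gene, and all 35 were well above background on between 22 and 26 of the 26 arrays, 31 of them on every array.

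The samples were 26 whole-blood RNA samples of 23 horses that took part in 160 km endurance rides, taken from the jugular vein at rest before the ride (T0) or right after its end (T1). The 61 recruited horses were Arabian or half-breed, aged 10 ± 2 years (SEM), and the breed label of every array was "Autre". The experimental set (labelled training) held horses 2, 32 and 41, all geldings, each measured at T0 and at T1. Both arrays of each of these horses were on different slides and scanned on different days. Differences between their changes can therefore not be told apart from slide or scan day. The validation set held different animals at the 2 time points, 7 horses at T0 (3 females and 4 geldings) and 13 horses at T1 (3 females and 10 geldings). By the study's methods, most validation horses sampled at T0 later failed a veterinary check while those sampled at T1 finished, so time point and outcome cannot be told apart in that set.

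A T cell recognises antigen through a receptor that has almost no intracellular part of its own. The CD3 chains bound to it carry the signalling motifs, CD4 or CD8 binds the MHC molecule and brings in the kinase LCK, and LCK and FYN phosphorylate the chains so that ZAP70 docks and builds a scaffold on LAT and LCP2. Naive and central memory T cells are known by TCF7, LEF1, CCR7, IL7R, CD27 and CD28, and effector and helper states by TBX21, GATA3, CD40LG and ICOS. In blood, T cells are a minority of leukocytes beside neutrophils.

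The probes that read the receptor complex are shown because the first results rest on them. They are oligonucleotides of 60 bases, written 5′ to 3′, with the coordinates that the array files give for the equCab1 build. These 4 map to a span longer than 60 bases, as an oligonucleotide across an exon junction does, and 11 of the probes used did so. CD3E lies at chr7:22845133-22846018 on the plus strand, CD247 at chr5:4059655-4060531 on the minus strand, CD4 at chr6:34536064-34537223 on the plus strand and CD8A at chr15:14387419-14388093 on the plus strand.
CD3E: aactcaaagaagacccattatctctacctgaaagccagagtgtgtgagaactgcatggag
CD247: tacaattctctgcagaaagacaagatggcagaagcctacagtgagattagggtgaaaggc
CD4: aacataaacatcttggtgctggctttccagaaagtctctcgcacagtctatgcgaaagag
CD8A: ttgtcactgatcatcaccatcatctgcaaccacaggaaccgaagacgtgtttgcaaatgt

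A level below is the log2 processed signal of a probe minus the 75th percentile of its array, so that a level of 0 is the 75th percentile of the array. Levels of different genes come from different probes, so that only changes over time, and not levels, are compared between genes. Between 60.4% and 75.4% of the spots of an array were well above background (median 68.3%), and precision is limited by how many arrays there are. The array of validation horse 34 at T1 was scanned in 1 pass, unlike the others, and held all 431 saturated spots. Validation horse 47 at T0 stood apart from the other T0 horses. Its summed level of 10 neutrophil markers was 706 against 141 to 203 in the other 6 horses, and that of 35 T cell genes was 50 against 76.0 to 97.9. Both arrays were kept, and the main counts and medians are given without them too.

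T cell genes were lower after the ride almost throughout. In the validation set 31 of the 35 genes fell, 1 rose (LCP2) and 3 did not pass the test (CD6, TXK and FOXP3), by limma with p-values adjusted over 17405 gene names and a threshold of 0.05. Of all gene names tested, 24% fell and 20.2% rose. The median change over the 35 genes was -1.26 (range -1.71 to 0.65), beside a median of -0.07 over all gene names. Without horse 47 the counts were again 31 lower and 1 higher, with a median of -1.36, and without horse 34 they were 31 and 1, with a median of -1.28. Among geldings alone (4 at T0, horse 47 among them, and 10 at T1) 20 genes fell and LCP2 rose. Of the genes called over both sexes, 11 did not pass there, and the part of horse 47 in this was not tested. After a normexp background correction followed by quantile normalization, the median was -0.76, and 15 of the 31 genes that fell changed by over 1.5 times less, as did 13 on the deposited series values. Levels are relative to the whole array. In whole blood, fewer T cells, less RNA per T cell and more RNA from other cells cannot be told apart.

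**Figure D1:**
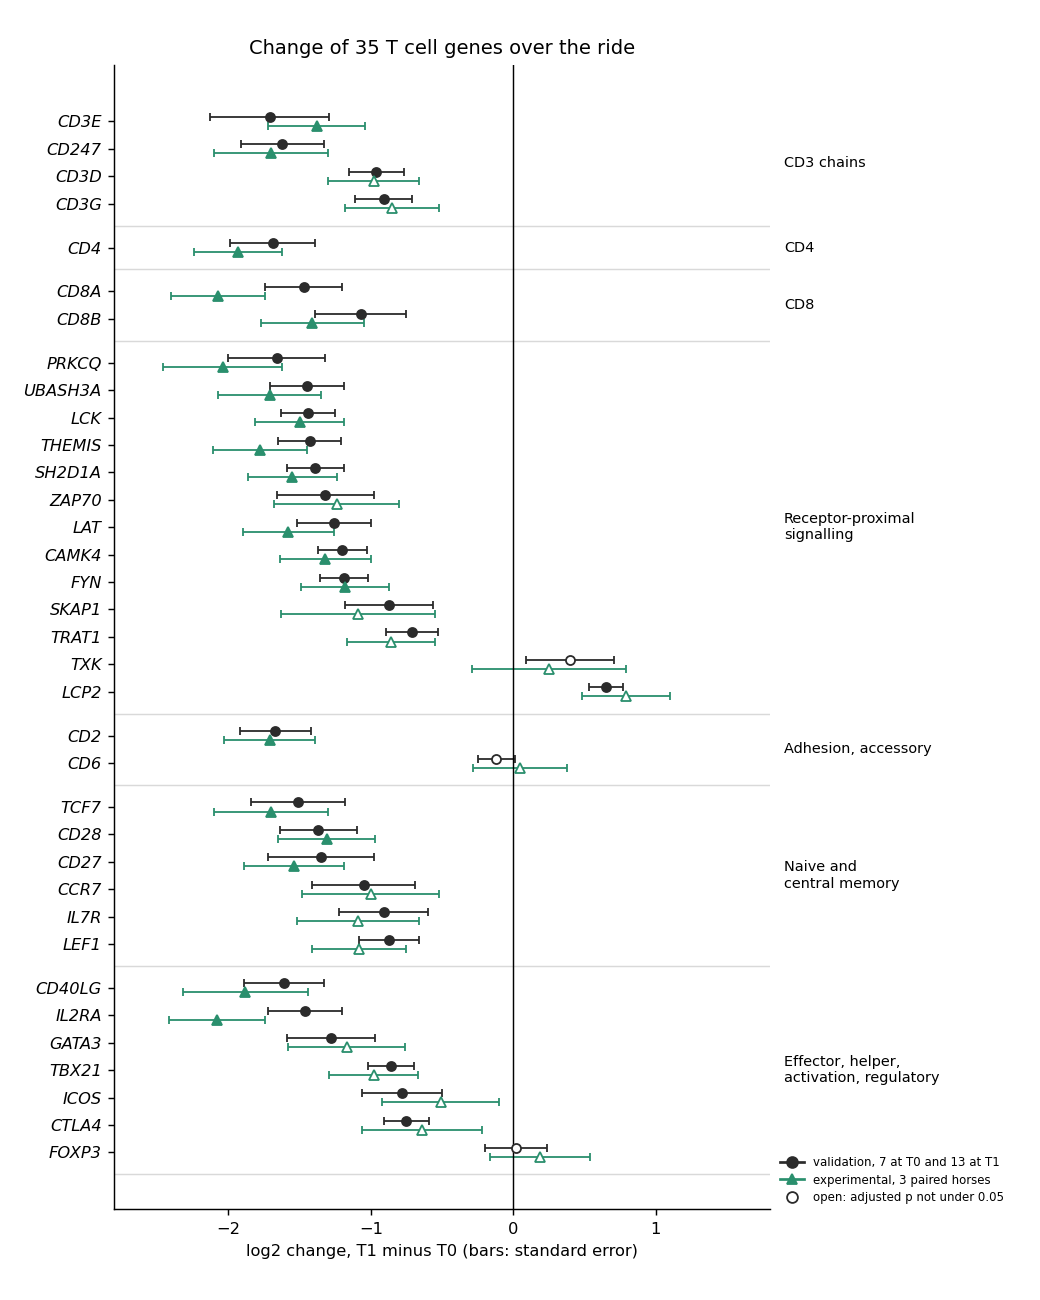
Change from T0 to T1 of each of the 35 genes (log2 scale, x axis), grouped by role, in the validation set (circles, 7 horses at T0 and 13 at T1) and in the experimental set (triangles, 3 paired horses), with the standard error as bars. Filled symbols passed an adjusted p of 0.05, and in the validation set only LCP2 lies to the right of 0 with a filled symbol, at 0.65.

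The 4 CD3 chains, which turn antigen binding into a phosphorylation signal, all fell in the validation set, with a median change of -1.29. CD3E had levels from 1.20 to 4.06 at T0 (median 3.19, n = 7) and from -0.98 to 2.79 at T1 (median 1.35, n = 13). All 13 T1 horses lay below the T0 median, and 4 of them below the lowest T0 horse. The change was -1.71 ± 0.42 (SE, adjusted p = 0.00255), which left 30.5% of the T0 signal. CD247, the zeta chain with most of the phosphorylation motifs, ranged from -2.38 to -0.79 at T0 (median -1.12) and from -4.09 to -1.54 at T1 (median -2.94). With 10 of 13 T1 horses below the lowest T0 horse, it changed by -1.62 ± 0.29 (adjusted p = 0.000183). CD3D and CD3G, which pair with CD3E, had smaller changes of -0.96 ± 0.19 (adjusted p = 0.000398) and -0.91 ± 0.20 (adjusted p = 0.00109). The difference between the chains was not tested.

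The same chains were lower at T1 in each experimental horse. CD3E went from 3.36 to 2.26 in horse 2, from 4.36 to 2.34 in horse 32 and from 2.35 to 1.32 in horse 41. The change of -1.38 ± 0.34 passed the test (adjusted p = 0.0396), as did that of CD247 (-1.70 ± 0.40, adjusted p = 0.0342). The ranges of CD3E at T0 and T1 nearly met, in that horse 41 was at 2.35 at T0 and horse 32 was at 2.34 at T1. CD3D (-0.98 ± 0.32, adjusted p = 0.0843) and CD3G (-0.85 ± 0.33, adjusted p = 0.123) did not pass in these 3 horses.

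The coreceptors CD4, carried by helper T cells and also by some other leukocytes, and CD8A and CD8B, the chains of the coreceptor of cytotoxic T cells, fell together. CD4 ranged from -2.23 to 0.08 at T0 (median -0.71) and from -3.75 to -1.22 at T1 (median -2.45) in the validation set. The 2 groups met only through horse 47, which was the lowest T0 horse, and the other 6 lay between -0.91 and 0.08, above every T1 horse. The change was -1.69 ± 0.30 (adjusted p = 0.000170), to 30.9% of the T0 signal. CD8A ranged from -3.29 to -1.21 at T0 (median -2.21) and from -4.43 to -2.49 at T1 (median -3.59), a change of -1.47 ± 0.27 (adjusted p = 0.000215). CD8B changed by -1.07 ± 0.32 (adjusted p = 0.00897), with 12 of 13 T1 horses below the T0 median, and by -0.47 among geldings alone, where it did not pass (adjusted p = 0.33).

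Among experimental horses, CD4 went from -0.51 to -2.65 in horse 2, from -0.75 to -2.67 in horse 32 and from -0.87 to -2.60 in horse 41. The 3 horses were closer together at T1 than at T0, and the change was -1.93 ± 0.31 (adjusted p = 0.0102). CD8A went from -2.32 to -3.95, from -1.35 to -3.73 and from -1.89 to -4.08 in horses 2, 32 and 41, a change of -2.07 ± 0.33 (adjusted p = 0.00897). CD8B changed by -1.41 ± 0.36 (adjusted p = 0.0435). This experimental call was kept by CD8B in 6 of 12 alternatives, and was lost on the deposited series values (-0.86, adjusted p = 0.0511) and with no replicate block (adjusted p = 0.0557), while CD4 kept it in 10 and CD8A in 11.

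**Figure D2:**
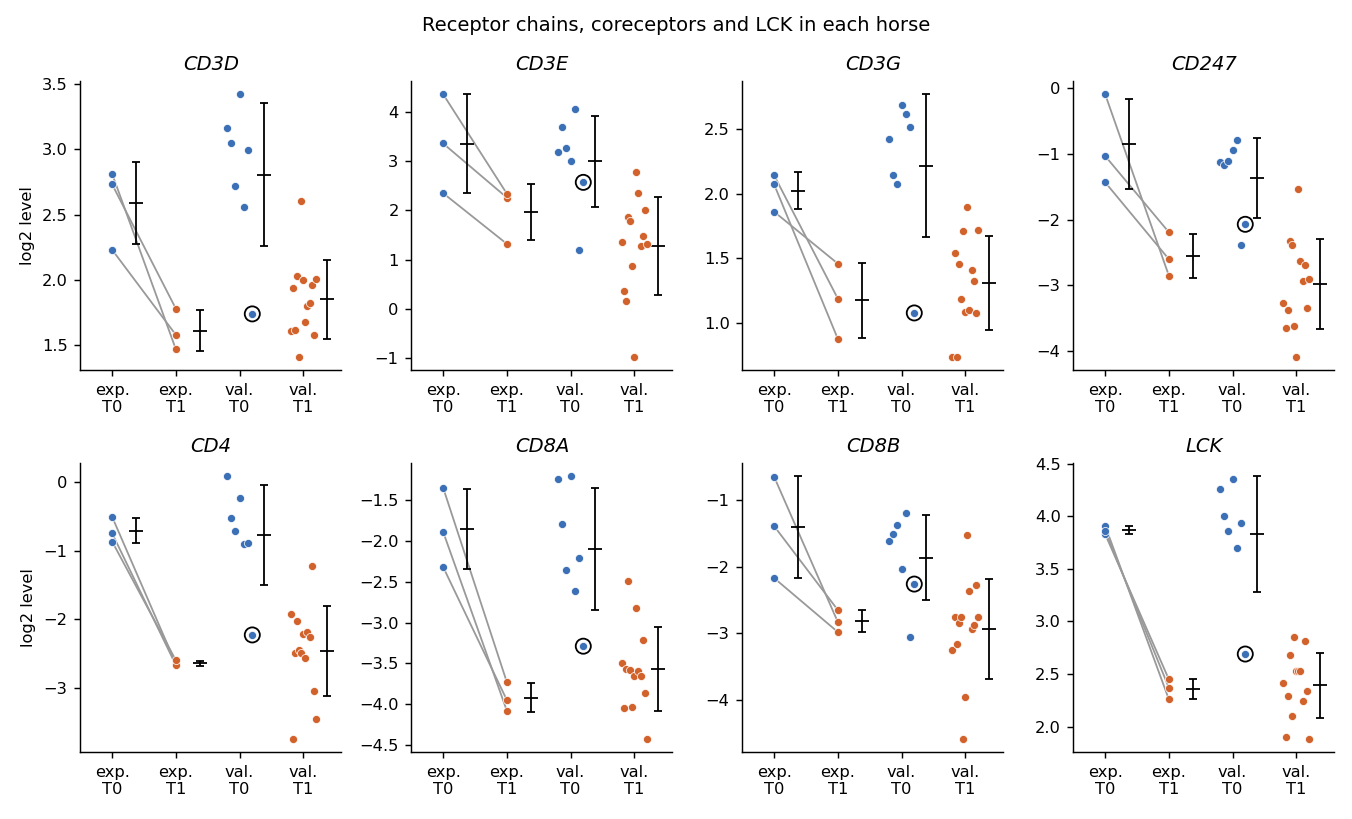
Log2 level (y axis, the log2 signal less the 75th percentile of its array) of the CD3 chains, the coreceptors and LCK in each horse, for the experimental (exp.) and validation (val.) sets at T0 and T1, with the mean and SD as bars. Lines join the 2 arrays of a horse, and the circled point is validation horse 47 at T0, which at -2.23 for CD4 and 2.69 for LCK lies among the T1 horses.

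Of the 13 genes of receptor-proximal signalling, 11 fell in the validation set, LCP2 rose, and TXK did not pass the test, with a median of -1.26 over the 13. LCK, the kinase that the coreceptors hold, read here by a custom oligonucleotide whose description names another protein, ranged from 2.69 to 4.35 at T0 (median 3.94) and from 1.88 to 2.85 at T1 (median 2.41). Without horse 47 the lowest T0 horse was at 3.70 and the groups were apart. The change was -1.44 ± 0.19 (adjusted p = 1.10e-05), to 36.9% of the T0 signal, and LCK went from 3.91 to 2.26, from 3.83 to 2.45 and from 3.86 to 2.37 in experimental horses 2, 32 and 41. FYN, the second SRC-family kinase of the receptor, changed by -1.19 ± 0.17 (adjusted p = 1.87e-05), and ZAP70, the kinase that docks on the phosphorylated chains, by -1.32 ± 0.34 (adjusted p = 0.00326). LAT, the membrane scaffold that ZAP70 phosphorylates, went from a T0 median of 1.24 (0.26 to 1.73) to a T1 median of -0.22 (-1.07 to 0.85), a change of -1.26 ± 0.26 (adjusted p = 0.000597).

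PRKCQ, the protein kinase C of the T cell synapse, had the largest change of this group at -1.66 ± 0.34 (adjusted p = 0.000629), from a T0 median of -1.75 (-3.53 to -0.84) to a T1 median of -3.35 (-5.15 to -2.28). CAMK4, a calcium-dependent kinase, changed by -1.20 ± 0.17 (adjusted p = 2.04e-05), with 11 of 13 T1 horses below the lowest T0 horse. The adaptors of the list fell as well. SH2D1A, the adaptor of the SLAM receptors, changed by -1.39 ± 0.20 (adjusted p = 1.85e-05) and THEMIS, a receptor-tuning protein of the T lineage, by -1.43 ± 0.22 (adjusted p = 5.32e-05). UBASH3A, a suppressor of receptor signalling, changed by -1.45 ± 0.26 (adjusted p = 0.000205), so that an inhibitor moved with the activating members. TRAT1, which stabilises the receptor, changed by -0.71 ± 0.18 (adjusted p = 0.00255) and SKAP1, an adaptor of integrin activation, by -0.87 ± 0.31 (adjusted p = 0.0270). The call of SKAP1 was lost without validation T0 horse 15 (adjusted p = 0.0630) or horse 29 (adjusted p = 0.0781).

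Of the same 13 genes 8 fell in the experimental set and none rose past the threshold. The 8 were LCK (-1.50, adjusted p = 0.0228), FYN (-1.18, adjusted p = 0.0459), LAT (-1.58, adjusted p = 0.0225), SH2D1A (-1.55, adjusted p = 0.0210), THEMIS (-1.78, adjusted p = 0.0165), PRKCQ (-2.04, adjusted p = 0.0223), CAMK4 (-1.32, adjusted p = 0.0390) and UBASH3A (-1.71, adjusted p = 0.0241). ZAP70 did not pass (-1.24 ± 0.44, adjusted p = 0.0990). Its change was -0.29 for horse 2, -2.48 for horse 32 and -0.95 for horse 41.

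LCK and FYN are each read by 2 probes, and the brighter one, used above, is a custom oligonucleotide of 50 bases with no stated position. The array files name the genes of these custom oligonucleotides as LCK and FYN but describe both as calcium channels ("Canaux Ca2+"), and whether they read the 2 kinases was not tested. The other probe of each gene is 60 bases long and maps to equCab1, at chr2:22905402-22905461 for LCK and at chr10:55732189-55732248 for FYN, both on the minus strand. These are shown because they come from the same stretch of 2 related kinases. Over an aligned stretch of 29 bases they share 26 (89.7%), which are in capitals.
LCK: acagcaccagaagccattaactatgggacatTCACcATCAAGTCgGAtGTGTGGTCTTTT
FYN: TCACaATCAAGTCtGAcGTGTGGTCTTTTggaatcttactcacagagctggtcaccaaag
On the mapped probe LCK changed by -1.37 in the validation set (adjusted p = 0.00684) and by -1.24 in the experimental set (adjusted p = 0.0643). On the mapped probe FYN did not pass in either set, at -0.73 (adjusted p = 0.0569) and -0.43 (adjusted p = 0.474). The call of FYN therefore rests on the custom oligonucleotide, while LCK fell in the validation set by both probes. Whether either probe also reads the other transcript was not tested.

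The 4 genes that did not fall in the validation set were LCP2, TXK, CD6 and FOXP3. LCP2, the scaffold protein SLP-76 that T cells share with myeloid cells and platelets, ranged from 2.85 to 3.47 before the ride (median 2.91) and from 3.36 to 4.01 after it (median 3.66). All 13 T1 horses lay above the T0 median, and 10 of them above the highest T0 horse, which was horse 47. The change was 0.65 ± 0.12 (adjusted p = 0.000170), a 1.57-fold rise, and each of its 4 probes changed by between 0.62 and 0.70. Over the paired arrays LCP2 went from 2.80 to 3.82, from 3.32 to 3.91 and from 2.82 to 3.57 in horses 2, 32 and 41, which did not pass the test (0.79 ± 0.31, adjusted p = 0.133).

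CD6, a surface glycoprotein that binds ALCAM, stayed within a narrow range, from -1.49 to -1.02 at T0 (median -1.42) and from -1.93 to -0.95 at T1 (median -1.38). The change was -0.12 ± 0.13 (adjusted p = 0.483). FOXP3, the transcription factor of regulatory T cells, was dim, between -5.18 and -4.14 at T0 and between -5.57 and -3.45 at T1, with 7 of 7 T0 and 11 of 13 T1 arrays well above background. Its change was 0.02 ± 0.22 (adjusted p = 0.946). TXK, a TEC-family kinase, changed by 0.40 ± 0.31 (adjusted p = 0.305), with 6 of 7 T0 and 11 of 13 T1 arrays well above background. None of CD6, FOXP3 and TXK passed in the experimental set either, and their 3 horses did not move one way. At levels near the background a fold change is understated, so that for FOXP3 and TXK a change in either direction is hard to detect.

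**Figure D3:**
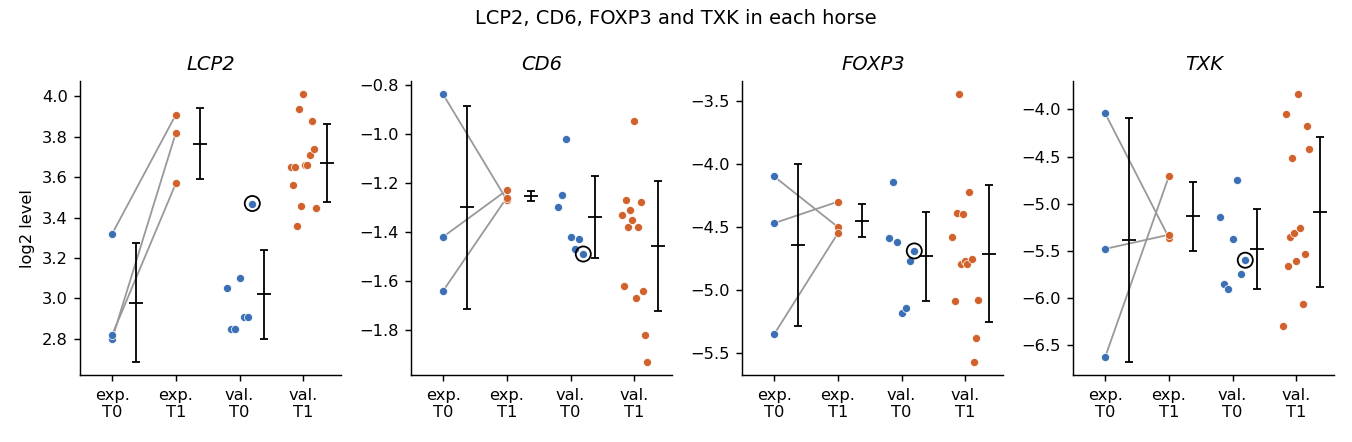
Log2 level (y axis) of LCP2, CD6, FOXP3 and TXK in each horse, with groups, lines, bars and the circled horse 47 as in the plot of the receptor genes. LCP2 is higher at T1, with 10 of 13 validation T1 horses above the highest T0 horse, and the T0 and T1 points of the other 3 genes overlap.

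CD2, the adhesion receptor by which T cells and NK cells bind other cells, was the other accessory surface gene with a probe. It ranged from -0.20 to 1.41 at T0 (median 1.08) and from -1.93 to -0.02 at T1 (median -0.78). Of the 13 T1 horses, 12 lay below the lowest T0 horse, and the change was -1.67 ± 0.25 (adjusted p = 3.81e-05). CD2 went from 0.85 to -0.61, from 1.56 to -0.54 and from 0.96 to -0.60 in experimental horses 2, 32 and 41 (-1.71 ± 0.32, adjusted p = 0.0173).

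All 6 measured genes of naive and central memory T cells fell in the validation set, with a median of -1.20. TCF7, a transcription factor of naive and stem-like memory cells, ranged from -2.32 to -0.89 at T0 (median -1.15) and from -4.70 to -2.0 at T1 (median -2.50), a change of -1.51 ± 0.33 (adjusted p = 0.00104). Its partner LEF1 changed by -0.87 ± 0.21 (adjusted p = 0.00202). CD28 and CD27, costimulatory receptors, changed by -1.37 ± 0.27 (adjusted p = 0.000365) and -1.35 ± 0.37 (adjusted p = 0.00507). CCR7, the receptor for entry into lymph nodes, and IL7R, the receptor for the survival factor IL-7, had weaker support, at -1.05 ± 0.36 (adjusted p = 0.0209) and -0.91 ± 0.31 (adjusted p = 0.0227). Without validation T0 horse 29 neither passed, with adjusted p of 0.0599 for CCR7 and 0.0714 for IL7R. The change of CD28 was -0.44 on the deposited series values and -0.43 with normexp and quantile normalization, and passed under both (adjusted p = 0.000768 and 0.000597).

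Of the same genes, TCF7 (-1.70 ± 0.40, adjusted p = 0.0389), CD27 (-1.54 ± 0.35, adjusted p = 0.0321) and CD28 (-1.31 ± 0.34, adjusted p = 0.0441) fell in the experimental set. The TCF7 value rests on horses 2 and 32, because the spot of horse 41 at T1 was marked as an outlier and left out. The call of TCF7 there was kept in 4 of 12 alternatives, and was lost among others with normexp and quantile normalization (-0.59, adjusted p = 0.237) and on the series values (-0.69, adjusted p = 0.144). CD28 did not pass under those either (-0.45, adjusted p = 0.102, and -0.47, adjusted p = 0.107). The change of IL7R was 0.02 for horse 2, -2.19 for horse 32 and -1.12 for horse 41. CCR7 changed by -0.21, -2.53 and -0.26 in the same horses, and neither gene passed the test.

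Of the 7 genes of effector, helper, activated and regulatory T cells, 6 fell in the validation set and FOXP3 did not pass, with a median of -0.86 over the 7. CD40LG, the ligand by which helper T cells activate B cells, ranged from -3.52 to -1.25 at T0 (median -2.21) and from -4.70 to -2.31 at T1 (median -3.82), with 11 of 13 T1 horses below the lowest T0 horse (-1.61 ± 0.28, adjusted p = 0.000112). IL2RA, the high-affinity IL-2 receptor chain of activated and regulatory cells, went from a T0 median of -3.72 (-4.45 to -2.96) to a T1 median of -5.01 (-6.28 to -4.33), a change of -1.46 ± 0.26 (adjusted p = 0.000145). Of the 13 T1 arrays 10 read it well above background, so on the others its level is a bound rather than a measured value. Its change was -0.40 both on the series values (adjusted p = 0.000406) and with normexp and quantile normalization (adjusted p = 0.000334). GATA3, the factor of type 2 helper cells, changed by -1.28 ± 0.31 (adjusted p = 0.00222). TBX21, the factor of type 1 helper and effector cells, changed by -0.86 ± 0.16 (adjusted p = 0.000284). CTLA4, an inhibitory receptor, changed by -0.75 ± 0.16 (adjusted p = 0.000927), and ICOS, a costimulatory receptor of activated cells, by -0.78 ± 0.28 (adjusted p = 0.0297).

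ICOS kept its call in 26 of 32 alternatives, the fewest of the genes that fell. It did not pass with scan day as a term (-0.46, adjusted p = 0.147), with sex as a term (-0.65, adjusted p = 0.0524), among geldings alone (-0.82, adjusted p = 0.109), or without T0 horse 13 (adjusted p = 0.0615), 14 (adjusted p = 0.0688) or 15 (adjusted p = 0.0649). Among the paired horses only CD40LG (-1.88 ± 0.44, adjusted p = 0.0338) and IL2RA (-2.08 ± 0.34, adjusted p = 0.0111) of this group fell. IL2RA went from -3.35 to -5.03, from -3.19 to -5.88 and from -3.95 to -5.81 in horses 2, 32 and 41, and did not pass on the series values (-0.57, adjusted p = 0.0594) or with normexp and quantile normalization (-0.58, adjusted p = 0.0515). The value of CTLA4 there (-0.64, adjusted p = 0.338) rests on horses 2 and 32, as for TCF7. TBX21 was lower in all 3 horses, by changes of -1.06, -0.85 and -1.02, and did not pass (adjusted p = 0.0756).

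Probes of a gene can differ more in level than the 2 time points do. TBX21 has 5 probes at almost the same place, and its dimmest and brightest, at chr11:22708625-22708684 and chr11:22708628-22708687 of equCab1 on the plus strand, are shown because they share 57 of 60 bases, in capitals, with a shift of 3 bases.
TBX21 dimmest: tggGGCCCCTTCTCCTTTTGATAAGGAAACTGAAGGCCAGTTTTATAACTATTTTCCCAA
TBX21 brightest: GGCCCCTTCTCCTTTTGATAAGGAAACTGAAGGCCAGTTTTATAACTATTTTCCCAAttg
The mean level was -2.49 for the dimmest and -0.53 for the brightest, and the validation change was -1.55 for the dimmest and -0.86 for the brightest. Of the 35 genes, 14 had more than 1 probe, and in all 14 every probe changed in the same direction in both sets. The largest spans of change between probes in the validation set were those of TBX21, ICOS (-1.20 to -0.58) and IL2RA (-2.0 to -1.46), so sizes of change are less certain than their signs.

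Whether CD4 and CD8 genes, naive and effector genes, or the regulatory gene changed unequally was tested on the difference between the levels of 2 genes on the same array, for 5 pairs in the validation set, by an exact two-sided permutation test over 77520 splits with Benjamini-Hochberg adjustment over the 5 pairs. CD8A minus CD4 was -1.33 ± 0.27 (SD) in the 7 T0 horses and -1.11 ± 0.53 (SD) in the 13 T1 horses, a difference of 0.22 (exact p = 0.313, adjusted 0.313). CD8B minus CD4 differed by 0.62 (exact p = 0.197, adjusted 0.313). No unequal change of the coreceptors was detected. TCF7 minus TBX21 differed by -0.65 (exact p = 0.0624, adjusted 0.156) and GATA3 minus TBX21 by -0.42 (exact p = 0.258, adjusted 0.313), so that naive against effector and type 2 against type 1 factors did not pass either. The TCF7 difference was -0.15 with normexp and quantile normalization (adjusted 0.482) and -0.13 on the series values (adjusted 0.592).

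FOXP3 minus CD4 was the 1 pair that passed. It was -3.96 ± 0.81 (SD) in the 7 T0 horses and -2.24 ± 0.76 (SD) in the 13 T1 horses, a difference of 1.72 (exact permutation p = 0.000451, adjusted 0.00226). Without horse 47 the difference was 1.97 (exact p adjusted to 0.000921), without horse 34 it was 1.70 (adjusted 0.00318), and on the quantile normalized values with normexp background correction it was 1.04 (adjusted 0.000451). The same difference moved by 1.73, 2.08 and 2.53 in experimental horses 2, 32 and 41. Its size is close to that of the CD4 change alone (-1.69), and the FOXP3 probe was not well above background on 2 of the 13 T1 arrays. An unequal change of FOXP3 cannot be told apart here from a probe near the lower end of its range.

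The ranges of the 2 validation groups overlapped for each of the 31 genes that fell, where 0.764% of all gene names had every T1 array below every T0 array. Without horse 47, 13 of the 35 genes had no overlap, against 6.33% of all gene names. These were CD3G, CD4, LCK, FYN, TRAT1, SH2D1A, THEMIS, PRKCQ, CAMK4, CD2, TCF7, CD28 and TBX21. The mean over the 35 genes, set against the mean of the validation T0 horses, was -0.71 in horse 47 and between -0.35 and 0.36 in the other 6 T0 horses. At T1 it lay between -1.59 and -0.40 (median -1.13). Horse 47 was the lowest of the 7 T0 horses for 22 of the 35 genes. It was singled out partly by its low sum of these same genes. The count without it is therefore a description, and its comparison with all gene names is not an even one.

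In the experimental set 19 of the 35 genes fell and none rose past the threshold, with a median change of -1.31 beside 0.03 over the 17490 gene names tested, of which 4.04% fell. All 19 had also fallen in the validation set. Of the 35 genes, 26 were lower in each of the 3 horses, beside 25.6% of all gene names. A gene with a missing value, as TCF7 and CTLA4 had for horse 41, was counted as not lower. With a horse left out, 1 gene passed without horse 2, 7 without horse 32 and 23 without horse 41, while the median lay between -1.52 and -1.07. These fits rest on very few horses, and their counts were not set against calls over all gene names. They do not show how much of the fall a single horse carries. The mean over the 35 genes was between -0.16 and 0.67 at T0 and between -1.13 and -0.87 at T1, so the 3 horses were closer together after the ride. Over all gene names 706 fell and 1088 rose (60.6% of calls higher), and with quantile normalization 1024 fell and 1008 rose (49.6% higher), under which 21 of the 35 genes fell.

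The change did not differ detectably between the sets. In limma with the horse as a random block, the set by time term passed for 0 of the 35 genes, as for 0% of 17405 gene names. At an unadjusted p under 0.05, 90 gene names and 0 of the 35 passed, and the lowest unadjusted p of the 35 was 0.234. The differences of change, validation minus experimental, lay between -0.33 and 0.62 with SE between 0.24 and 0.85, and 23 genes had the larger fall in the experimental set. With normexp and quantile normalization and on the series values, CTLA4 was the 1 gene of the 35 with an unadjusted p under 0.05 (0.0344 and 0.0418, beside 125 and 131 gene names), and 0 passed after adjustment. CTLA4 was named after its values were seen.

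**Figure D4:**
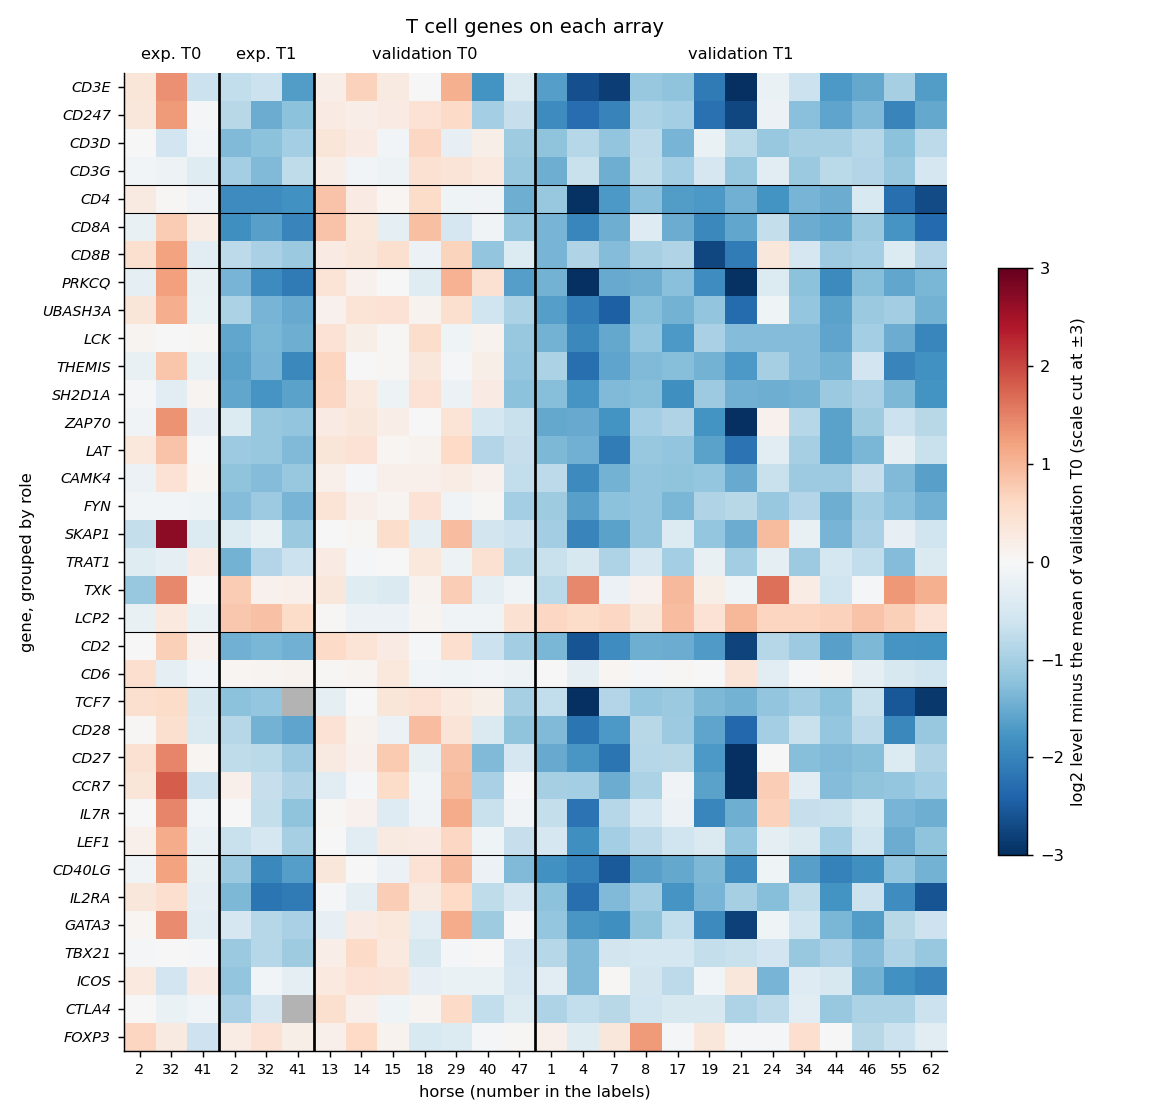
Log2 level of each of the 35 genes (rows, grouped by role) on each of the 26 arrays (columns, labelled with the horse's number) minus the mean of the validation T0 horses, with blue for lower and red for higher, a colour scale that ends at -3 and 3, and grey for the 2 outlier spots left out. The T1 columns are blue in nearly all rows apart from LCP2, TXK, CD6 and FOXP3, and horse 47 at T0 is paler blue.

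The horses varied by a similar amount before and after the ride. The median SD of a gene between validation horses was 0.56 at T0 and 0.57 at T1, and 16 of the 35 genes had the larger SD at T0. LCP2, FYN and CTLA4 varied least at T1, with SD of 0.19, 0.24 and 0.24. CD3E, CCR7 and ZAP70 varied most, with SD of 1.0, 0.90 and 0.89. The validation arrays were scanned on several days, 5 of which held both groups. These days held 1 or 2 arrays at T0 and 1 to 4 at T1, and on each day at least 1 group was a single array. The day with the largest median fall compared 1 array with 1 array. Within these days the median change over the 35 genes lay between -1.70 and -0.78, and between 27 and 34 genes were lower at T1, beside 44.4% to 56.2% of all gene names. On all 5 days 22 of the 35 genes were lower, beside 17.8% of all gene names.

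The rest of the receptor pathway did not move one way. Of 54 further pathway genes 53 had a probe. In the validation set 18 of these fell, 16 rose and 19 did not pass, with a median of 0.14. Over all 17405 gene names tested in that set, 4172 fell and 3520 rose. The experimental set had 6 pathway genes that fell and 7 that rose, with a median of 0.29. Over all 17490 gene names tested in the experimental set, 706 fell and 1088 rose. Whether the pathway shares differ from those of all gene names was not tested. The largest falls were those of SIT1 (an inhibitory transmembrane adaptor, -2.03 ± 0.36, adjusted p = 0.000152) and CD7 (an early marker of T and NK cells, -1.74 ± 0.32, adjusted p = 0.000241). Next came CD5 (an inhibitory coreceptor, -1.69 ± 0.32, adjusted p = 0.000279) and TRBC2 (the constant part of the receptor's beta chain, -1.52 ± 0.21, adjusted p = 1.34e-05). The largest rises were those of FOS (an immediate early transcription factor, 2.47 ± 0.43, adjusted p = 0.000140) and SLA (an adaptor that lowers receptor levels, 2.05 ± 0.44, adjusted p = 0.000770). After them came NFKBIA (the inhibitor of NF-kappaB, 1.70 ± 0.27, adjusted p = 5.99e-05) and PPP3CA (a catalytic subunit of calcineurin, 1.21 ± 0.20, adjusted p = 8.26e-05). In the experimental set these 8 genes also passed, with FOS at 3.16 (adjusted p = 0.00195) and CD7 at -2.18 (adjusted p = 0.00715).

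Marker lists of the other blood cells did not all move one way, and their part in the changes was not tested. In the validation set, 4172 of all 17405 gene names tested fell and 3520 rose. Whether the counts of these short lists differ from those shares was not tested. B cell markers fell with the T cell genes (9 of 10, median -1.31), as did cytotoxic and NK markers (7 of 10 lower, 1 higher, median -1.03). Neutrophil markers rose (8 of 10, median 1.53), with a summed level of 141 to 706 at T0 and 439 to 1807 at T1. Immature granule markers of neutrophils rose in 4 of 5 genes (median 3.14), from a summed 5.83 to 199 at T0 to 116 to 456 at T1. Monocyte markers went both ways, with 4 of 8 higher and 2 lower (median 1.01), and summed to 132 to 339 at T0 and 293 to 783 at T1. Over the same arrays the 35 T cell genes summed to 50 to 97.9 at T0 and 38.9 to 58.5 at T1, sums on the linear scale that a few bright probes lead.

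Platelet and erythroid markers were thinly covered. Of 6 platelet markers PPBP, ITGB3 and GP6 were too dim to be tested and the other 3 did not pass (median 0.45). Of the erythroid markers SLC4A1 and EPB42 were too dim, GATA1 had no named probe, and 1 of 3 rose (median 0.50). With the sums of horse 47 left out, the neutrophil sum at validation T0 ended at 203 and the immature granule sum at 21.8. Both lay under every validation T1 array (lowest 439 and 116). Horse 47 was singled out partly by this same neutrophil sum, so the separation without it is a description only. With horse 47 kept, the T0 sums reached 706 and 199, and the ranges overlapped. The summed neutrophil level of the experimental horses was 96.1 to 489 at T0 and 747 to 857 at T1. In the experimental set the medians were -0.87 for B cell, -1.53 for cytotoxic and NK, 1.07 for monocyte, 1.60 for neutrophil and 3.22 for immature granule markers.

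**Figure D5:**
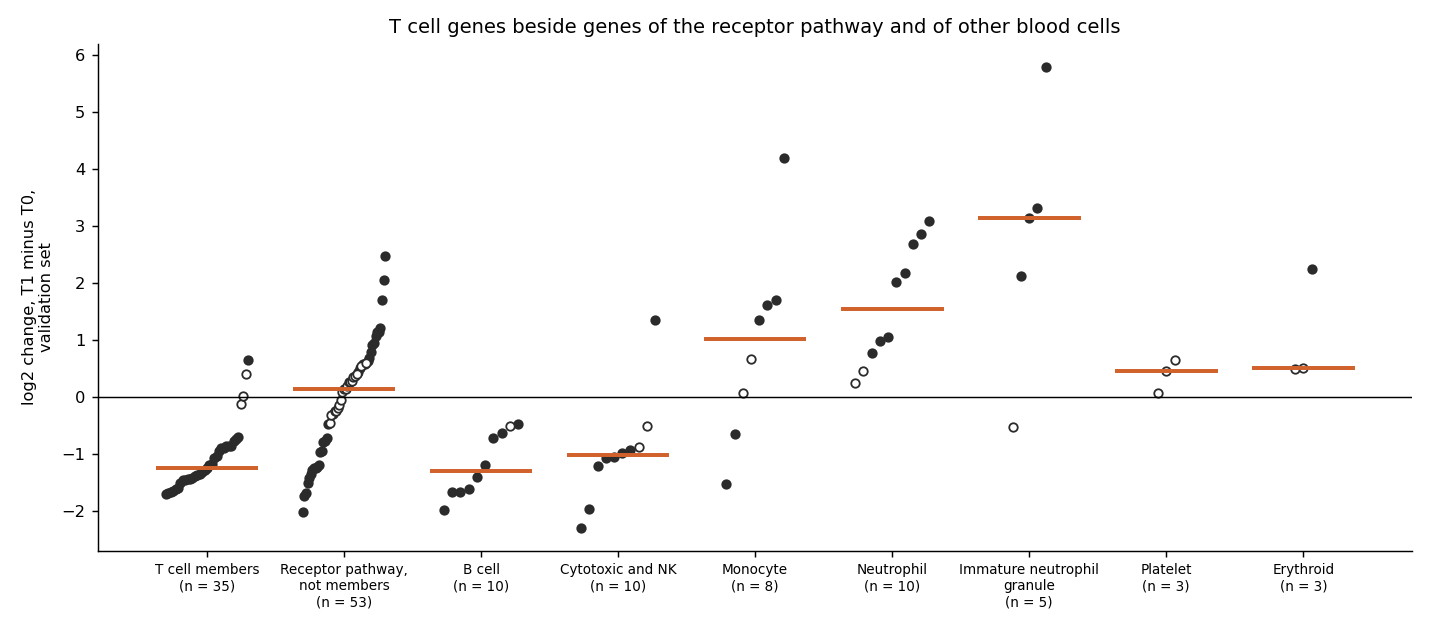
Change from T0 to T1 in the validation set (log2 scale, y axis) of each gene of the T cell list, of the other receptor pathway genes and of the marker lists of other blood cells, with 1 point a gene, filled where the adjusted p was under 0.05, and the median as a line. The T cell, B cell, and cytotoxic and NK medians lie at -1.26, -1.31 and -1.03, the pathway median at 0.14 and the neutrophil median at 1.53.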

How the data were processed

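Whole-blood RNA of 26 samples was measured on 1-colour Agilent equine arrays, and samples were grouped by set, horse and time point from their labels. The scanner files deposited by the authors hold an intensity for each of 45220 spots from Agilent's Feature Extraction, background corrected but not scaled across arrays. The series table that the authors deposited gives values in log2 units, which were read as normalized between arrays since their medians were nearly equal, and which served as an alternative. Here the 75th percentile of each array was subtracted from its log2 processed signals, 386 outlier spots were left out, spots of a probe were averaged, and the brightest probe stood for a gene name. The members, role groups and lists were chosen with earlier results of these data known.

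Gene names well above background on at least 7 of 20 validation arrays or 3 of 6 experimental arrays were tested with limma (version 3.58.1, run under R 4.3.3 beside statmod version 1.5.0 and the package data.table, version 1.17.8), by Benjamini-Hochberg adjustment over all of them. The validation set was fitted without a block and the experimental one with a fixed term for each horse, a replicate block, since the labels give both arrays of a pair the same animal. To check this pairing, each horse's deviations from the group means were correlated between its 2 arrays, which gave r of -0.00866 for horse 2, 0.213 for horse 32 and 0.191 for horse 41. The set by time term was fitted on the 26 arrays of both sets, with horses as a random block (consensus correlation -0.0503). Differences between genes on an array were tested by exact permutation in Python 3.11.15 (numpy 2.4.6, pandas 2.3.3). On simulated data of the validation comparison with 17405 gene names, 76.0% of genes lowered by 1 on the log2 scale and 92.0% of those lowered by 2 were called, and 0.0697% of unchanged ones. Of genes raised by 1, 64.0% were called, and of those raised by 2, 96.0%. Each gene was drawn independently from a normal distribution, with 50 genes changed at each size and 17205 unchanged. Far more gene names were called in the data, where genes also vary together, so these rates need not hold there.

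All listed genes with a probe are named. Of the further pathway genes, at most the 4 that fell most and the 4 that rose most past the threshold in the validation set are named, and other marker genes only where a statement turns on them. Alternatives were quantile normalization, normexp (offset 50) with quantile normalization, the deposited series values, a filter that needs every array, no filter, probes of a gene averaged, scan day or sex as a term, slide as a random block, geldings alone, all arrays in 1 fit, no replicate block, each horse left out, and, chosen after seeing the data, the mapped probes of LCK and FYN. The 18 slides and 8 scan days are as the files record them. Probe coordinates are those of the array files (equCab1), and no sequence beyond the probes was used here.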

Additional observations from a re-analysis of the deposited data

Results flagged for a closer look

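At T0 in the validation set, horse 47 lay far from the other 6 horses for 7 of the 35 genes, by a gap that exceeded Dixon's 95% critical value for 7 samples. Chance alone gives about 1 in 20 such groups where groups are independent, and 35 were examined, 1 for each gene. Here all 7 gaps come from the same array and the genes vary together, so that rate does not apply to the count. Its level was 1.08 for CD3G (others 2.07 to 2.68), -2.23 for CD4 (others -0.91 to 0.08), 2.69 for LCK (others 3.70 to 4.35) and 2.41 for FYN (others 3.33 to 3.86). It was -2.92 for THEMIS (others -1.80 to -1.13), -0.98 for CAMK4 (others -0.31 to -0.02) and, on the high side, 3.47 for LCP2 (others 2.85 to 3.1). For all 7 genes the horse lay toward the T1 horses.

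The same array was high in the summed markers of neutrophils (706, other T0 horses 141 to 203), of immature neutrophil granules (199, others 5.83 to 21.8), of monocytes (339, others 132 to 206) and of erythroid cells (327, others 12.6 to 155), and low in cytotoxic and NK markers (19.1, others 33.9 to 153). The source of these values was not tested.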

How the results depend on the processing

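In the validation set the count of 32 genes called and the median of -1.26 moved to 21 with geldings alone, to a median of -0.76 on the deposited series values and to -0.76 with normexp and quantile normalization. Leaving out each of the 20 horses gave 29 to 32 genes and medians of -1.36 to -1.17. Geldings alone left 11 called genes without a call (CD3E, CD8B, ZAP70, LAT, SKAP1, IL7R, CCR7, CD27, GATA3, ICOS and CTLA4). That fit had 14 arrays with 4 at T0, horse 47 among them. SKAP1 also lost its call when both sets were fitted at once (-0.87, adjusted p = 0.0657). In the experimental set 0 of 35 genes passed in limma with no filter, where 46 of 24415 gene names did and 25 of the 35 had an unadjusted p under 0.05. Leaving out each horse gave 1 to 23 genes and medians of -1.52 to -1.07. With no replicate block, which drops the pairing, 17 genes passed with a median of -1.31, and the set by time term passed for 0. GATA3 minus TBX21 turned to 0.04 with normexp and quantile normalization (adjusted p = 0.842) and to 0.05 on the series values (adjusted p = 0.804). FOXP3 in the validation set turned to -0.01 on the series values and, over all 20 rounds of leaving out a horse, lay between -0.08 and 0.12, below 0 without T0 horse 18 (-0.05) or 29 (-0.05), or T1 horse 7 (-0.00422), 8 (-0.08), 19 (-0.00318) or 34 (-0.02). In the experimental set TXK turned to -0.06 on the series values, -0.06 with normexp and quantile normalization and -0.58 without horse 2 (1.03 at most, without horse 32). CTLA4 turned to 0.07 and 0.16 and FOXP3 to -0.00152 under those normalizations. CD6 lay between -0.12 and 0.28 when a horse was left out (below 0 without horse 32, and -0.02 without horse 41), and FOXP3 between -0.12 and 0.49 (below 0 without horse 41). None of these reversed values had passed the test before. The cause was not tested for any of these moves.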
